A study of Mus musculus with 6 samples.

Results

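The 52 genes described here encode the enzymes, membrane proteins and proton pump of the lysosome, and were taken as a list of gene symbols, all of which matched 1 of the 52636 genes in the table. They comprise 10 proteases, 14 glycan hydrolases and sulfatases, 7 lipid hydrolases and lumenal cofactors, 9 membrane proteins, 11 genes of the proton pump and the transcription factor gene Tfeb. Their transcripts were counted by droplet single-cell RNA sequencing (10x Genomics 3′ v2) in retinas of 12-month-old male C57BL/6J mice. The Dram2 ko/ko group (labelled Dram2 KO, 3 retinas) carries a constitutive CRISPR/Cas9 deletion of exon 4 of Dram2, so the gene is disrupted in every cell, and the Dram2 wt/wt group (labelled Dram2 WT, 3 retinas) serves as control. Dram2 encodes a membrane protein of the lysosome. The labels place replicate 3 of each genotype in batch 1 and replicates 1 and 2 in batch 2, and they do not state whether replicates came from separate animals, so the spread between them may be technical.

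Lysosomes digest material that reaches them by endocytosis, phagocytosis and autophagy. A V-type ATPase pumps protons into the lumen, where acid hydrolases, activated by the low pH and helped by cofactor proteins, cut proteins, glycans and lipids, while membrane glycoproteins and transporters protect the membrane and export the products. In the eye, the retinal pigment epithelium (RPE) digests shed photoreceptor outer segments in its lysosomes, and microglia, the resident phagocytes of the retina, degrade debris in theirs. TFEB, the product of Tfeb, activates many lysosomal genes by binding a palindromic E-box in their promoters.

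The E-box was looked for in the promoters because the products of these genes work together in one organelle. RefSeq promoter windows (GRCm38.p6, 250 bases before to 50 bases after a transcription start) were at hand for 43 of the 52 members. The extended motif TCACGTGA, which reads the same on both strands, was found in 7 of these 43 genes (16.3%) and in 304 of 27025 genes with a window (1.12%). The core motif CACGTG, which the extended motif contains, was found in 14 of 43 members (32.6%) and in 8.09% of all genes. The 7 promoters are shown 5′ to 3′ on the strand of the gene with the extended motif in capitals. They belong to the proteases Ctsd and Ctsa, the glycan hydrolase Gla, the membrane proteins Mcoln1 and Cln3, and the pump subunits Atp6v0d1 and Atp6v1a. A match describes letters in the window and not a bound site.
Ctsd, chr7:142387889-142387956, minus strand: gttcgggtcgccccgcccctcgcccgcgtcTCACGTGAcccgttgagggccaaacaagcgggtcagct
Ctsa, chr2:164833730-164833814, plus strand: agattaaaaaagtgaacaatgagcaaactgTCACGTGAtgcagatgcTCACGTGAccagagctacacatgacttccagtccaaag
Gla, chrX:134601163-134601255, minus strand: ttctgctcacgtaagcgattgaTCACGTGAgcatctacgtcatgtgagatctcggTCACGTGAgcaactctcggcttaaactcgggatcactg
Mcoln1, chr8:3500443-3500510, plus strand: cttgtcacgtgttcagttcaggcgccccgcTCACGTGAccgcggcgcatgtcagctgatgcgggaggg
Cln3, chr7:126583321-126583388, minus strand: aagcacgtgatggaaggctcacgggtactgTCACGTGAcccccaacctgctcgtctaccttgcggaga
Atp6v0d1, chr8:105566031-105566098, minus strand: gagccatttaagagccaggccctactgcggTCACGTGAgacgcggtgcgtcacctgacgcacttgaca
Atp6v1a, chr16:44139354-44139421, minus strand: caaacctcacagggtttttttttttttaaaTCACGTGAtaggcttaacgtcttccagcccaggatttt
The motif lay close to the start in Atp6v0d1 (first base at position -4 from the start) and Ctsa (-13 and 4). In Mcoln1 it lay at -46. The motif was farther away in Ctsd (-99), Cln3 (-122), Atp6v1a (-132) and Gla (-228 and -195). Ctsa and Gla held 2 copies each.

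The 6 retinas gave 3463728 to 6563762 UMIs (unique molecular identifiers, 1 per captured transcript) from 7014 to 9242 cells each. The 2 retinas of batch 1 had the highest median depth (609 and 550 UMIs per cell, against 406 to 444 in batch 2) and more mitochondrial UMIs (3.22% and 2.75%, against 0.405% to 0.720%). The deposited cell types hold 116 RPE cells, which come from RPE carried over with the retina, 246 mesenchymal cells, 942 glia, 2083 interneurons and 42359 photoreceptors. The rod and RPE markers fit the labels: 14 rod genes took 10.5% of photoreceptor UMIs and 1.18% to 1.44% in the other types, and 11 RPE genes took 11.3% of RPE UMIs and at most 0.0386% elsewhere. Glia and cone markers were less separate. The 10 glia genes took 5.69% of glia and 2.40% of RPE UMIs, and 8 cone genes 0.633% of photoreceptor and 0.380% of interneuron UMIs. Dram2 could not check the genotype labels, since 3′ counting reads a stretch outside the deletion: its level over all cells was 27.8, 34.8 and 56.0 CPM (UMIs of the gene per 1000000 UMIs) in wt/wt replicates 1, 2 and 3 and 27.4, 34.0 and 53.5 CPM in ko/ko replicates 1, 2 and 3. Below, values of 6 retinas are given in the order wt/wt 1, 2, 3 and ko/ko 1, 2, 3. A level in CPM is the UMIs of a gene per 1000000 UMIs of a cell type in a retina, and as only transcript ends were counted it carries no factor for gene length.

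The mesenchymal label covers microglia and other cells, so it was read both whole and split into classes. A mesenchymal cell with more UMIs of 12 microglia genes (Cx3cr1, P2ry12, C1qa and the like, none of them a member) than of endothelial, pericyte and fibroblast genes was called microglia-like. This gave 88 microglia-like and 158 other mesenchymal cells. The 12 microglia genes took 4.40% of UMIs in microglia-like cells and 0.00109% in the others, and the 11 endothelial genes took 0.00470% and 1.72%. In wt/wt replicates 1, 2 and 3 the microglia-like share of mesenchymal cells was 51.3%, 49.0% and 32.4%. In ko/ko replicates 1, 2 and 3 it was 20%, 36% and 19.4%. The groups overlapped, with wt/wt replicate 3 below ko/ko replicate 2. The means were 44.2% ± 10.3 and 25.1% ± 9.43 (SD, n = 3), a difference of -19.1 percentage points (two-sided exact permutation p = 0.2, where 3 against 3 retinas cannot go below 0.1). Within batch 2 the difference was -22.1 points and within batch 1, with 1 retina per genotype, -13.1 points. With stricter cell filters the share was 50%, 48.8% and 36.4% in wt/wt and 21.9%, 36.2% and 17.2% in ko/ko replicates 1, 2 and 3. These did not overlap, by a narrow margin (two-sided exact permutation p = 0.1).

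Together the 52 genes took a small part of all UMIs, and that part differed between cell types (plot of levels by type). They made up 0.373% ± 0.0615 (SD, n = 6) of UMIs in photoreceptors, 0.652% ± 0.0782 in interneurons and 0.857% ± 0.143 in glia. In RPE cells they made up 1.45% ± 0.0982 and in mesenchymal cells 1.68% ± 0.455. Within the mesenchymal label the microglia-like cells carried 3.88% ± 0.371 and the other cells 0.631% ± 0.0888, so the microglia-like cells lay above the RPE and the remaining mesenchymal cells near the interneurons. Of all mesenchymal UMIs 31.8% came from microglia-like cells, against 74.4% of the mesenchymal UMIs of the 52 genes. Since the cell types were themselves derived from these counts, the levels are a description with no test.

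**Figure D1:**
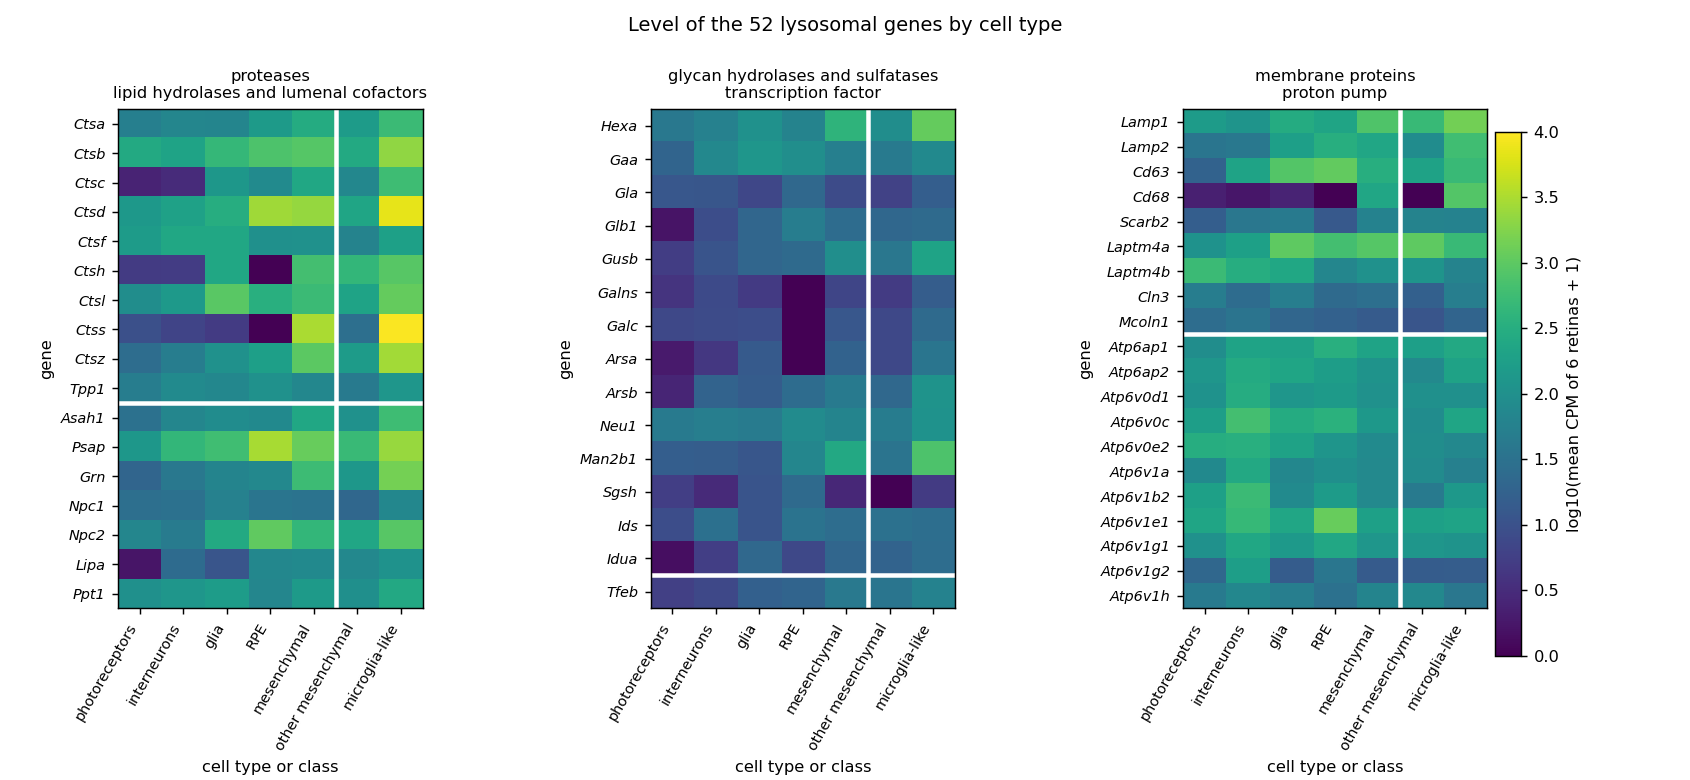
Mean level of each of the 52 genes (rows, by role) in 5 cell types and in the 2 classes of mesenchymal cells (columns, right of the white line), as log10 of mean CPM over 6 retinas plus 1. The brightest cells are Ctss and Ctsd in microglia-like cells, the proton pump genes are highest among the 5 types in interneurons with the exception of Atp6v1e1, Atp6v1g1 and Atp6ap1 in RPE, and Cd68 and Ctss are at 0 in RPE.

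The order of the types differed by role. Of the 52 members, 48 had at least 100 UMIs in typed cells, as did 13760 genes in all. A single type was highest in all 6 retinas for 9 members in mesenchymal cells (4.73% of all genes), for 5 in interneurons (7.65% of all genes), for 3 in RPE cells (1.56% of all genes), for 1 in photoreceptors (6.45% of all genes) and for 0 in glia (3.94% of all genes). For 30 members no type was highest throughout. The 9 mesenchymal members were the proteases Ctsh, Ctss and Ctsz, the glycan hydrolases Hexa and Gusb, Asah1 and Grn, and the membrane proteins Cd68 and Lamp1. With microglia-like cells left out, 2 of the 9 (Ctsh and Lamp1) were still highest in mesenchymal cells. The 5 interneuron members all belong to the proton pump. Transcript counts do not show which organelle their products serve.

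Among the proteases, Ctsd (cathepsin D, an aspartic protease; ENSMUSG00000007891, chr7:142375911-142388038, minus strand) had the highest mean level over the 5 types. Its level in RPE cells was 2320, 2293, 2447, 3041, 2573 and 3456 CPM. In mesenchymal cells it was 3559, 2465, 3165, 1152, 2472 and 1323 CPM, so both types overlapped and RPE cells were above mesenchymal cells in 3 of 6 retinas. Glia (312 ± 72.7 CPM, SD, n = 6), interneurons (195 ± 36.1) and photoreceptors (137 ± 34.2) followed. Within the mesenchymal label Ctsd held 7154 ± 1982 CPM in microglia-like and 221 ± 114 CPM in other cells. With microglia-like cells left out, Ctsd was highest in RPE cells in all 6 retinas.

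Ctss (cathepsin S, a cysteine protease of antigen-presenting cells; ENSMUSG00000038642, chr3:95526786-95556403, plus strand) was nearly confined to microglia-like cells. It reached 10695, 10920, 10418, 6373, 10499 and 7328 CPM in microglia-like cells. In the other mesenchymal cells it was 48.6, 19.1, 62.3, 0, 38.9 and 0 CPM, from 10 UMIs in all. In RPE cells 0 UMIs were counted among 151269, which allows up to 19.8 CPM. Its mean was 8.36 CPM in photoreceptors, 5.66 CPM in interneurons, and the pooled level was 3.86 CPM in glia. In these neurons and glia Ctss came with the microglia genes in about the ratio seen in microglia-like cells: 22.9 Ctss UMIs per 100 UMIs of the 12 microglia genes in microglia-like cells, 21.7 in photoreceptors, 19.1 in interneurons and 14.0 in glia, where 6 Ctss UMIs were counted. No Ctss expression was read from these levels, and the source of the UMIs was not tested. The ratio says nothing of other mesenchymal cells, which were chosen for few UMIs of the microglia genes.

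Ctsl and Ctsb, both cysteine cathepsins, were less narrow. Among the 5 types Ctsl was highest in glia, at 745, 790, 1105, 978, 750 and 1251 CPM, with mesenchymal cells next at 528 ± 203 CPM. Glia led in 5 of 6 retinas, the exception being wt/wt replicate 1 (785 CPM in mesenchymal cells). With microglia-like cells left out, Ctsl was highest in glia in all 6 retinas. Microglia-like cells alone held 1126 ± 343 CPM of Ctsl, and other mesenchymal cells 212 ± 53.3 CPM. Ctsb overlapped between mesenchymal (877 ± 317 CPM) and RPE cells (755 ± 209 CPM) and was lower in glia (455 ± 43.8 CPM). Within the mesenchymal label Ctsb was at 2132 ± 311 CPM in microglia-like and 272 ± 49.7 CPM in other cells. Ctsh, an aminopeptidase, was found in other mesenchymal cells too (452 ± 100 CPM), in glia at 244 CPM, and not in RPE cells, where 0 UMIs were counted. Ctsf, Tpp1 and Ctsa ranged over 49.5 to 288 CPM in the 5 types, with overlapping leading types for each.

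The glycan hydrolases and sulfatases were low. All but Hexa, Man2b1 and Gaa stayed under a mean of 100 CPM in every one of the 5 types, and 4 (Glb1, Galns, Arsa and Idua) had fewer than 100 UMIs in typed cells. Hexa, the alpha subunit of beta-hexosaminidase, led the group. It had 675, 459, 309, 320, 289 and 308 CPM in mesenchymal cells, above every retina of the next type, glia (103 ± 46.6 CPM). Within the mesenchymal label Hexa was at 1125 ± 339 CPM in microglia-like and 88.8 ± 51.9 CPM in other cells. Man2b1, the lysosomal alpha-mannosidase, had 466, 342, 276, 218, 167 and 89.9 CPM in mesenchymal cells, and RPE cells had 67.5 ± 55.3 CPM. Mesenchymal cells led in 5 retinas, and RPE cells in ko/ko replicate 3 (176 CPM from 3 UMIs). Man2b1 was at 762 ± 180 CPM in microglia-like and 33.9 ± 35.1 CPM in other mesenchymal cells. Gaa (acid alpha-glucosidase) was highest in glia, at 123 CPM, and overlapped with RPE cells at 94.1 CPM.

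A pair of cofactors of lipid breakdown were highest in the RPE. Psap encodes the precursor of the saposins, which present sphingolipids to their hydrolases, and was at 2656, 3120, 2752, 3354, 3194 and 2636 CPM in RPE cells. That was 2.53 times the mean of mesenchymal cells (1169 ± 302 CPM), with no overlap, and the largest such ratio among the 3 members highest in RPE cells throughout. Microglia-like cells alone held 2401 ± 425 CPM of Psap (1776 to 2936), which overlapped with RPE cells. Npc2, which hands cholesterol to NPC1, was at 1160, 1090, 667, 939, 1242 and 1171 CPM in RPE cells and 451 ± 105 CPM in mesenchymal cells, with no overlap. In microglia-like cells alone Npc2 was at 905 ± 143 CPM (666 to 1057), which overlapped with RPE cells. Npc1, the membrane partner, was far lower, from 28.2 CPM in photoreceptors to 56.4 CPM in glia. Grn, which encodes progranulin, had 557 CPM in mesenchymal cells, and 1451 ± 310 CPM in microglia-like against 128 ± 39.1 CPM in other mesenchymal cells. Ppt1, a thioesterase that removes fatty acids from proteins, lay between 67.9 CPM in RPE cells and 163 CPM in glia.

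The pair Laptm4a and Laptm4b, paralogous transmembrane proteins of late endosomes and lysosomes, were highest in different types. Laptm4a was at 955, 904, 1297, 958, 695 and 1383 CPM in glia, and at 601, 779, 651, 1050, 964 and 1207 CPM in mesenchymal cells. Its level in photoreceptors was 105, 96.0, 114, 115, 96.4 and 122 CPM. Glia and mesenchymal cells overlapped, and photoreceptors lay below every other type. Laptm4b was at 425, 436, 671, 567, 445 and 698 CPM in photoreceptors, above every retina of the next type, interneurons (306 ± 58.7 CPM). UMIs of Laptm4b per UMI of Laptm4a were 5.07 in photoreceptors (4.06 to 5.89 over 6 retinas) and 1.51 in interneurons, above 1 in all 6 retinas in both. The ratio was 0.213 in glia, 0.118 in mesenchymal and 0.108 in RPE cells, and under 1 in all 6 retinas in each. Rod genes took 1.18% to 1.40% of UMIs in these types, and the source of their Laptm4b UMIs was not tested.

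Cd63, a tetraspanin of late endosomes, was highest in RPE cells at 1010, 1316, 862, 1208, 1065 and 1171 CPM, and glia (846 ± 168 CPM) overlapped with it. Photoreceptors had a mean of 16.9 CPM. The annotated copy Cd63-ps took 1222 UMIs of its own and followed the same order (555 CPM in RPE cells, 354 in glia, 6.20 in photoreceptors), so how reads were divided between the gene and the copy makes the Cd63 level uncertain. Lamp1, a major glycoprotein of the lysosomal membrane, was at 787 ± 73.7 CPM in mesenchymal cells and between 115 and 293 CPM in the other types. Cd68, a glycoprotein of macrophage lysosomes, had 126 UMIs in microglia-like cells and 0 in other mesenchymal and RPE cells. Mcoln1, Cln3 and Scarb2, a calcium channel, a protein lost in a juvenile storage disease and a receptor for glucocerebrosidase, stayed at 12.0 to 57.3 CPM in every type. Tfeb was among the lowest members, at 12.3, 42.7, 44.1, 38.4, 26.3 and 77.0 CPM in mesenchymal cells from 21 UMIs, and at 4.69 CPM in photoreceptors.

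The proton pump followed another order than the hydrolases. Its 11 genes together took 0.350% ± 0.0512 of UMIs in interneurons, 0.287% ± 0.0365 in RPE cells, 0.163% ± 0.0339 in glia, 0.146% ± 0.0266 in photoreceptors and 0.117% ± 0.0165 in mesenchymal cells. The proteases, for comparison, took 0.0999% in interneurons and 0.921% in mesenchymal cells. The mean was highest in interneurons for 8 of the 11 pump genes. Atp6v0c, the proteolipid of the membrane ring, was at 572, 563, 584, 1070, 576 and 483 CPM in interneurons. Its level in ko/ko replicate 1 stood apart in photoreceptors (290 CPM, against 139 to 186 in the other 5 retinas) and in glia (570 CPM, against 186 to 300) as well. Atp6v1b2, the B2 subunit of the catalytic head, was at 523 ± 48.0 CPM in interneurons and 187 ± 11.2 CPM in photoreceptors, with no overlap.

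Atp6v1e1, the E1 subunit of the stalk, was 1 of 3 pump genes with the highest mean in RPE cells, beside Atp6v1g1 and Atp6ap1. It was at 1534, 1654, 945, 984, 1464 and 469 CPM in RPE cells and at 477 ± 68.3 CPM in interneurons, and RPE cells led in 5 of 6 retinas. The subunit G isoforms differed in spread. Atp6v1g2, the isoform known from neurons, was at 90.1, 115, 283, 159, 117 and 275 CPM in interneurons and 4.87 times the mean of the next type, RPE cells (35.5 ± 34.7 CPM, 5 UMIs). The batch 1 retinas were the 2 highest in interneurons. Atp6v1g1 was at 192, 204, 314, 252, 190 and 278 CPM in interneurons and 253 ± 135 CPM in RPE cells, which overlapped, and in no type and retina with UMIs of both did Atp6v1g2 exceed it.

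The test between microglia-like and other mesenchymal cells of the same 6 retinas was edgeR's quasi-likelihood test with the retina as a block. The 2 classes were drawn by other genes of the same cells and were not sorted apart. Of the 52 members, 16 were higher in microglia-like cells at an adjusted p under 0.05 (25.9% of all 575 genes tested were higher), 1 was lower (31% of all were lower), 1 was tested and not called, and 34 had too few UMIs for the test. The median log2 difference of the 18 tested was 2.55, beside -0.16 over all genes. A gene abundant in only one class passes the count filter through that class, so these figures describe the tested genes only. Of the 34 not tested, each with 131 UMIs or fewer, 24 had the higher pooled level in microglia-like cells and 10 the lower. Without the filter on low counts all 52 could be tested, and 18 were higher (2.6% of all 18544 genes) and 1 lower (5.85% of all genes), with a median of 1.16 beside -0.61 over all genes.

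The largest differences were those of Ctss, Cd68 and Ctsd. Ctss was 8.40 ± 0.33 higher on the log2 scale (SE, adjusted p = 5.6e-17). Ctsd was 5.11 ± 0.25 higher (SE, adjusted p = 2.2e-15). Both were higher in microglia-like cells in 6 of 6 retinas, with no overlap. Cd68 was at 496, 655, 830, 1471, 622 and 1110 CPM in microglia-like cells and at 0 in every retina in the others, so it was at least 90.2-fold higher, against 3 UMIs over all other mesenchymal cells. The next were Man2b1 (log2 difference 4.55), Ctsz (4.18), Hexa (3.70), Grn (3.56) and Ctsb (3.04), all higher in 6 of 6 retinas. Smaller differences were those of Lamp1 (1.61 ± 0.20), Cd63 (1.57 ± 0.34) and Ctsh (1.14 ± 0.24). Without the filter on low counts Ctsh was no longer called, while Ctsc, Gusb and Lamp2 were. Without ko/ko replicate 1 Ctsa had too few UMIs for the test.

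Laptm4a was the one member called lower in microglia-like cells. It was at 298, 534, 491, 429, 595 and 777 CPM there and at 898, 972, 717, 1213, 1141 and 1263 CPM in other mesenchymal cells, lower in 6 of 6 retinas. The ranges met only through ko/ko replicate 3 in the first and wt/wt replicate 3 in the second. The log2 difference was -0.91 ± 0.22 (SE, adjusted p = 0.0010). Among the members of the proton pump, Atp6ap1, an accessory subunit, alone had the UMIs to be tested, and its difference of 0.73 ± 0.35 was not called (adjusted p = 0.077), though it was without ko/ko replicate 1. Of 44 further lysosomal genes, 6 were tested here and 4 were called, all higher in microglia-like cells, among them Lgmn, the protease legumain (4724 ± 657 against 48.7 ± 24.9 CPM), and Laptm5 (1778 ± 218 against 45.9 ± 85.7 CPM). Of 3 further pump genes tested, Atp6v0b, a subunit of the membrane sector, was called higher in microglia-like cells (494 ± 184 against 277 ± 120 CPM, log2 difference 1.08 ± 0.30, adjusted p = 0.0031, higher in 5 of 6 retinas). Atp6v0e (-0.21 ± 0.34) and Atp6v1f (-0.32 ± 0.32) were not called.

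**Figure D2:**
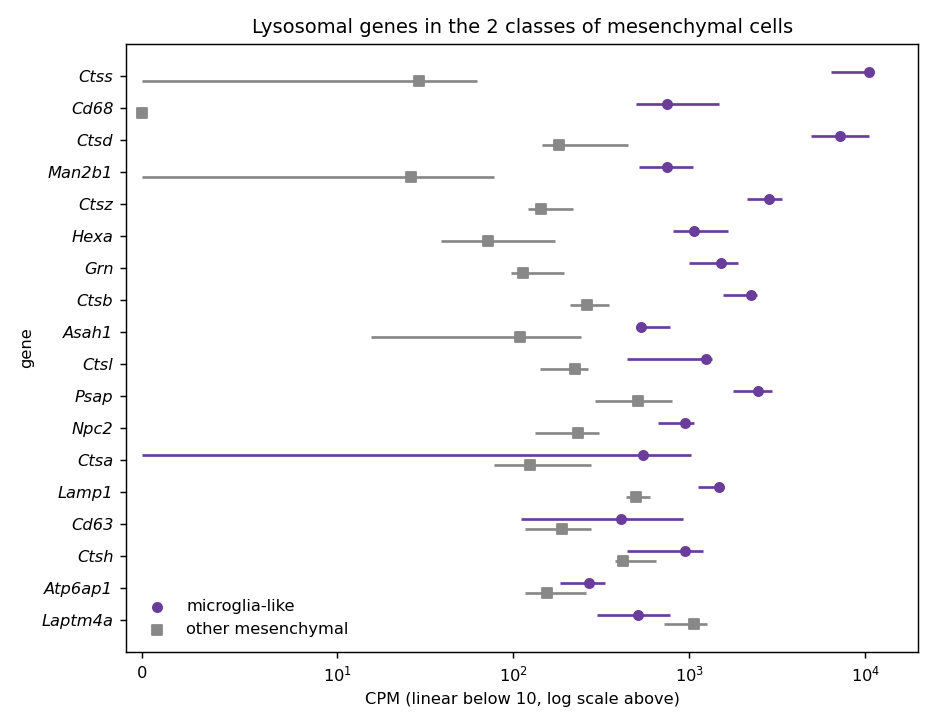
CPM of the 18 lysosomal genes tested in microglia-like and other mesenchymal cells, ordered by the fitted difference; points are medians over 6 retinas and lines run from the lowest to the highest retina. Ctss reaches 10920 CPM in microglia-like cells and at most 62.3 CPM in the others, and Laptm4a at the bottom is the one gene with the reverse order.

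The comparison of genotypes asked whether lysosomal transcripts differed in Dram2 ko/ko retinas. With genotype as the only term, no member was called in any of the 5 types. With the batch as a covariate or the replicate number as a block, 2 members were called in mesenchymal cells (1.22% and 1.4% of all genes), as described with those cells. In edgeR's quasi-likelihood test on UMI sums per retina, 0 of 13053 genes were called in photoreceptors (0%), 0 of 7698 in interneurons (0%), 0 of 4130 in glia (0%), 0 of 1717 in mesenchymal cells (0%) and 0 of 308 in RPE cells (0%). Enough UMIs for the test were found for 7 members in RPE cells, 25 in mesenchymal cells, 33 in glia, 37 in interneurons and 45 in photoreceptors. With limma-voom and DESeq2, 0 members were called in any type either. The 44 further lysosomal genes gave 0 calls in the 5 types.

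In photoreceptors 0 of the 45 members had an unadjusted p under 0.05 (0.835% of all genes did). Without wt/wt replicate 3 it was 7 (5.58% of all genes), with the batch as a covariate 3 (2.11%) and with the replicate block 2 (1.92%), and 0 were called in each. With genotype as the only term, the share of all genes lay below the threshold of 0.05 here and in interneurons and glia. That fit was conservative, so 0 members does not show that no member differed. For 2 members, Npc2 and Atp6v1b2, the genotypes did not overlap (5.55% of all genes). The median log2 difference was 0.14 over the members and -0.01 over all genes, with 33 members above 0. That median stayed above 0 in every alternative, from 0.01 to 0.31. The summed level was 0.315%, 0.309%, 0.448%, 0.387%, 0.340% and 0.441% of UMIs. The genotypes overlapped, and the highest value of each was the batch 1 retina, where the rod genes were also highest (11.8% and 12.6%, against 8.31% to 10.9%).

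The smallest p values in photoreceptors were those of the cathepsins Ctsa and Ctss. Ctsa was at 47.9, 41.9, 51.7, 57.4, 46.8 and 64.6 CPM (log2 difference 0.28 ± 0.19, SE, adjusted p = 0.998 in edgeR), with overlapping genotypes. Ctss was at 13.3, 14.0, 6.15, 5.88, 9.19 and 1.71 CPM (-0.99 ± 0.56, adjusted p = 0.998). The Ctss difference was -1.60 without ko/ko replicate 2, -0.52 without ko/ko replicate 3 and -0.47 with stricter cell filters, and the Ctsa difference 0.15 without ko/ko replicate 3. The 12 microglia genes were at 58.0, 49.8, 31.0, 38.7, 47.4 and 6.84 CPM in the same photoreceptors, lowest in the same retina.

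In interneurons 0 of 37 members had an unadjusted p under 0.05 (1.12% of all genes). With the replicate number as a block 4 did (3.09% of all genes) and 0 were called, and without wt/wt replicate 3 it was 3 (4.29%). The summed level was 0.589%, 0.582%, 0.682%, 0.691%, 0.592% and 0.777% of UMIs, which overlapped between genotypes. It was higher in ko/ko in each of the 3 same-numbered pairs, a pairing that the labels do not state. The CPM of the genotypes did not overlap for 3 members (6.21% of all genes), Psap, Cln3 and Npc1. Cln3 had the smallest p upward, at 23.7, 9.62, 21.3, 28.5, 34.5 and 31.2 CPM (0.75 ± 0.37, adjusted p = 1.00). Scarb2 had it downward, at 40.3, 36.1, 65.4, 8.14, 19.4 and 53.3 CPM (-0.60 ± 0.47, adjusted p = 1.00), from as few as 2 UMIs in ko/ko replicate 1. The Scarb2 difference was -1.67 without ko/ko replicate 3 and -0.21 without wt/wt replicate 3. The median log2 difference was 0.10 over the members and -0.01 over all genes, and the former was -0.05 without ko/ko replicate 3.

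In glia 0 of 33 members had an unadjusted p under 0.05 (1.23% of all genes), or 2 without wt/wt replicate 3 (8.09%), and the genotypes did not overlap for 2 (5.88% of all genes), both of the proton pump and in opposite directions. Atp6v1b2 was at 57.3, 40.2, 86.1, 101, 89.4 and 107 CPM (0.59 ± 0.32, adjusted p = 1.00). Atp6v1h, a regulatory subunit, was at 57.3, 80.3, 57.4, 40.2, 41.3 and 30.4 CPM (-0.86 ± 0.41, adjusted p = 1.00), from 6 to 26 UMIs per retina. The median log2 difference was 0.04 over the members and -0.01 over all genes, and the former ran from -0.08 to 0.12 over the alternatives.

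In RPE cells, where a retina gave 17073 to 35968 UMIs, 7 members could be tested. None had an unadjusted p under 0.05 (3.25% of all genes). With the replicate block 1 did (25 of all 308 genes), as did 1 without ko/ko replicate 2 (21 of all 379 genes), and 0 members were called in each. The genotypes did not overlap for Ctsd alone (10.7% of all genes), at a log2 difference of 0.30. Laptm4a was at 486, 677, 417, 939, 665 and 644 CPM (0.49 ± 0.30, adjusted p = 0.88). Atp6v1e1 was at 1534, 1654, 945, 984, 1464 and 469 CPM (-0.50 ± 0.39, adjusted p = 0.88). Both sets of values overlapped between genotypes, and ko/ko replicate 3, with 10 RPE cells, was the lowest for Atp6v1e1. The Atp6v1e1 difference was -0.22 without that retina and -0.93 without ko/ko replicate 2, and the Laptm4a difference 0.25 without ko/ko replicate 1. The 45 members not tested include Ctss, Ctsh and Cd68, which had 0 UMIs.

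**Figure D3:**
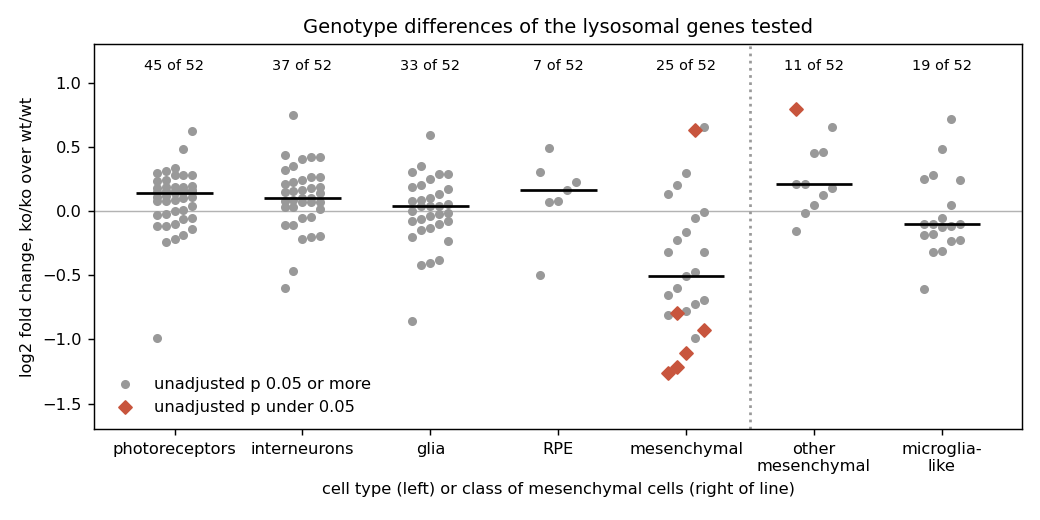
Log2 fold change of ko/ko over wt/wt for the lysosomal genes with enough UMIs in each cell type and, right of the dotted line, in the 2 classes of mesenchymal cells; horizontal bars are medians and the numbers on top are genes tested of 52. The median lies at -0.51 in mesenchymal cells (25 genes tested), at 0.21 in other mesenchymal cells (11) and at -0.10 in microglia-like cells (19). These are different sets of genes, so the medians are not a comparison of the same members.

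In mesenchymal cells most members tested lay lower in ko/ko retinas, and whether this differed from the other types was not tested. The median log2 difference of the 25 tested was -0.51, beside 0.03 over all genes, and 20 of the 25 were below 0. With 1 retina left out the median of those tested ran from -0.65 (without wt/wt replicate 3) to -0.31 (without ko/ko replicate 3). An unadjusted p under 0.05 was found for 6 members (8.91% of all genes), 5 lower and 1 higher, and the genotypes did not overlap for 7 (15.8% of all genes). None passed the adjustment. The count at an unadjusted p under 0.05 ran from 2 without wt/wt replicate 1 (4.11% of all genes) to 10 without wt/wt replicate 3 (11.1%). It was 11 with the batch as a covariate (13.4%), 10 with the replicate block (12.9%) and 0 with the share of microglia-like cells as a covariate (5.71%).

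Ctsz, cathepsin Z (ENSMUSG00000016256, chr2:174427493-174439039, minus strand), had the smallest p. It was at 1424, 1558, 1026, 653, 780 and 462 CPM, with every ko/ko retina below every wt/wt retina (log2 difference -1.11 ± 0.31, SE, adjusted p = 0.48). Man2b1 (-1.21 ± 0.38) had no overlap either, and Ctsd (-0.92 ± 0.33) and Ctsb (-0.80 ± 0.34) overlapped through ko/ko replicate 2. Ctss was at 5314, 4813, 3088, 1331, 3428 and 848 CPM (-1.26 ± 0.46, adjusted p = 0.49), and ko/ko replicate 2 lay above wt/wt replicate 3. Laptm4a was the one of these 6 that lay higher, at 601, 779, 651, 1050, 964 and 1207 CPM with no overlap (0.63 ± 0.27, adjusted p = 0.53).

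With the batch as a covariate, 21 genes were called in mesenchymal cells, among them 2 members, Ctss (log2 difference -1.36) and Ctsz (-1.12), both lower in ko/ko retinas at an adjusted p of 0.034. Lgmn, of the further lysosomal genes, was called in that fit as well. Ctss was also called without ko/ko replicate 2 (-2.15, adjusted p = 0.036). Ctss, Ctsz and Lgmn are among the genes higher in microglia-like cells. The mean share of those cells was lower in ko/ko retinas, with overlap between genotypes, as given above. Its part in these calls was not tested.

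The microglia-like share, Ctss and Ctsz were all lower on average in ko/ko retinas, so the members were read again within the classes. The order of retinas was not the same throughout. The share was higher in ko/ko replicate 2 (36%) than in wt/wt replicate 3 (32.4%), while Ctsz was lower there. With the share as a covariate, Ctss differed by -0.11 (adjusted p = 0.98) and Ctsz by -0.51 (adjusted p = 0.87), and 0 members were called. As the share itself differed in mean between the genotypes, this fit on so few retinas cannot tell share and genotype apart. Within microglia-like cells Ctss was at 10695, 10920, 10418, 6373, 10499 and 7328 CPM (-0.32, adjusted p = 0.999), and Ctsz at 2754, 3373, 2982, 2451, 2111 and 2887 CPM (-0.23, adjusted p = 0.999). The genotypes overlapped for both. In microglia-like cells 19 members were tested, 0 were called (0% of all 412 genes) and 0 had an unadjusted p under 0.05 (1.7% of all genes). The median there was -0.10, beside 0.03 over all genes. In other mesenchymal cells 11 were tested, 0 were called (0% of all 1217 genes) and 1 had an unadjusted p under 0.05 (2.63% of all genes), with a median of 0.21 beside 0.01 over all genes. That one, Psap, had an unadjusted p of 0.024 and lay at 291, 476, 343, 793, 545 and 653 CPM, with every ko/ko retina above every wt/wt retina (0.80 ± 0.32, adjusted p = 1.00). Laptm4a kept its direction in both classes (0.46 in other mesenchymal cells, adjusted p = 1.00, and 0.49 in microglia-like cells, adjusted p = 0.999).

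The summed level in mesenchymal cells was 2.25%, 2.11%, 1.69%, 1.31%, 1.64% and 1.06% of UMIs (plot of summed levels), so every ko/ko retina lay below every wt/wt retina, though ko/ko replicate 2 and wt/wt replicate 3 differed by little. The wt/wt mean was 2.02% ± 0.292 and the ko/ko mean 1.34% ± 0.292 (SD, n = 3), a difference of -0.68 percentage points, -0.70 within batch 2 and -0.63 within batch 1. Microglia-like cells held 29.2% to 49.5% of mesenchymal UMIs in wt/wt and 11.6% to 32.4% in ko/ko retinas. With that share set to its mean of 31.3% in every retina, a calculation chosen after the data were seen, the summed level was 1.63%, 1.68%, 1.77%, 1.59%, 1.60% and 1.60%, and the difference was -0.092 points, with every ko/ko retina still below every wt/wt retina. In microglia-like cells alone the summed level was 4.15% ± 0.267 in wt/wt and 3.60% ± 0.211 in ko/ko (n = 3), with no overlap. In the same cells 10 glia genes took 1.08%, 0.150% and 0.162% of UMIs in wt/wt and 3.21%, 3.30% and 0.233% in ko/ko replicates 1, 2 and 3, and their part in the difference was not tested. Of these, Apoe gave 1907 UMIs, Glul 238, Clu 83, Rlbp1 33, Dkk3 20 and each of the others 9 or fewer. Apoe was at 11199 CPM, Glul at 1398, Clu at 487, Rlbp1 at 194 and Dkk3 at 117 CPM, beside 706, 1225, 120, 38.3 and 19.1 CPM in other mesenchymal cells. The 14 rod genes took 3.66% of UMIs in microglia-like cells of ko/ko replicate 3 and 0.821% to 1.77% in the other retinas. Their part in the difference was not tested either. In other mesenchymal cells the summed level was 0.573% ± 0.0383 in wt/wt and 0.690% ± 0.0896 in ko/ko, the reverse order, with overlap. The values of ko/ko replicate 3 in the microglia-like class rest on 6 cells with 9007 UMIs.

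**Figure D4:**
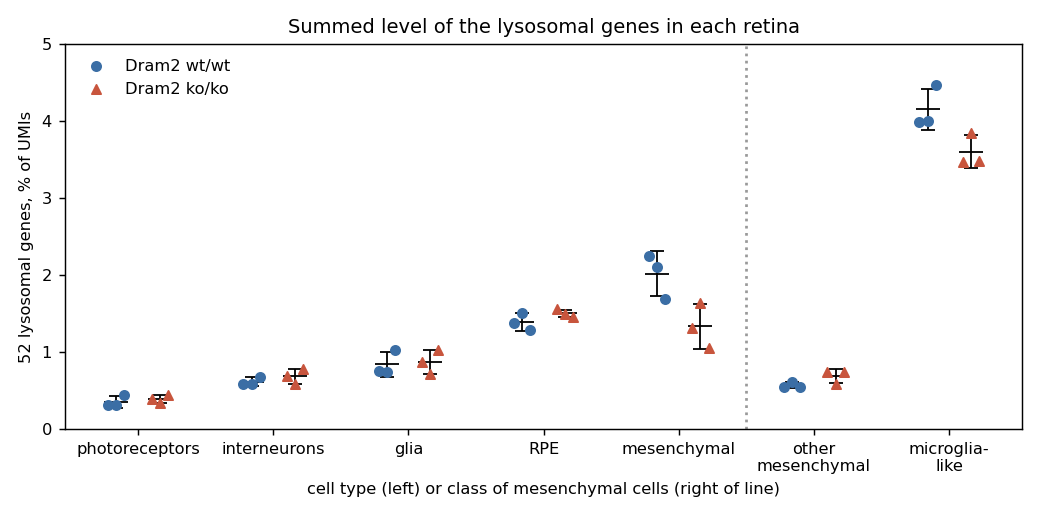
Percent of UMIs on the 52 lysosomal genes in each retina, by cell type and by class of mesenchymal cells; points are retinas and bars are mean ± SD of 3. Mesenchymal cells show the one non-overlapping difference among the 5 types (2.02% against 1.34%), and microglia-like cells do not overlap either (4.15% against 3.60%). In other mesenchymal cells, photoreceptors, interneurons, glia and RPE cells the ko/ko mean is the higher one, with overlap.

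**Figure D5:**
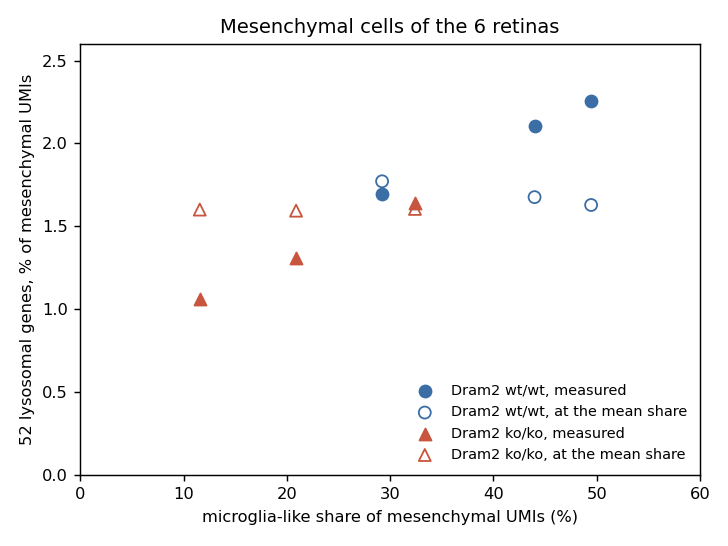
Percent of mesenchymal UMIs on the 52 lysosomal genes against the percent of mesenchymal UMIs from microglia-like cells, for 6 retinas; filled symbols are measured levels and open symbols the levels with the share set to its mean of 31.3%. The measured levels run from 1.06% to 2.25% and the open ones from 1.59% to 1.77%.

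By role, the mesenchymal difference lay mostly in the proteases, whose summed level was 1.21% ± 0.208 in wt/wt and 0.631% ± 0.275 in ko/ko. The glycan hydrolases and sulfatases were lower in ko/ko too, at 0.124% ± 0.0243 and 0.0795% ± 0.0143 with no overlap. The lipid hydrolases and cofactors were at 0.310% ± 0.0573 and 0.225% ± 0.0529, with overlap. The pump genes were at 0.112% ± 0.0129 and 0.123% ± 0.0207, and the membrane proteins at 0.257% ± 0.0231 and 0.274% ± 0.0104, both overlapping. Outside mesenchymal cells, role sums with no overlap were the proteases in RPE cells (0.398% and 0.480%) and the lipid group in interneurons (0.0723% and 0.0829%). Every other role sum in photoreceptors, interneurons, glia and RPE cells overlapped. The RPE sum contains Ctsd, and the interneuron sum Psap and Npc1, which are given above as single genes without overlap. Such sums have no share over all genes beside them and were not tested. Over all cells of a retina together, 51 members were tested and 0 were called (0% of all 15330 genes). An unadjusted p under 0.05 was found for 1 member, Ctsc (log2 difference -0.65), and for 0.659% of all genes, beside 3 without wt/wt replicate 3 (3.67%) and 4 with the batch as a covariate (2.74%). In such a sum, fewer cells of a type and less RNA per cell cannot be told apart.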

How the data were processed

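The authors aligned reads to GRCm38 with Cell Ranger 3.1.0, counted exonic reads, and deposited raw UMI counts of 52636 genes in 46375 cells. A second deposited table (unit: other, category labels) gives sample and cell type, from Seurat clusters after CCA over the batch. Cells carry running numbers, so barcodes shared between libraries could not be counted. Doublets were not treated, and 33 mesenchymal cells had UMIs of both microglia and other mesenchymal lists. Genes were named with GENCODE M21 (52489 matched).

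UMIs were summed per retina and type, never normalized across cells. Genotypes were compared in edgeR 4.0.16 (TMM factors, filterByExpr, genotype as the only term, Benjamini-Hochberg over all genes tested, adjusted p under 0.05). Limma-voom as run here (limma 3.58.1), DESeq2 1.42.0, other filters, batch, replicate block and left-out retinas were alternatives. The script was tested on simulated data. Limits for 0 are 3 counts and cover counting error only. The members and lists were chosen with earlier results of these data known. Retina values are given for members called, with the smallest p per direction and type, highest per role, in the 2 paralogue pairs, and most different between classes or types; Ctsl, Ctsb, Ctsh, Psap and others beyond that rule were chosen after their values were seen. One further lysosomal gene is not reported here.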

Additional observations from a re-analysis of the deposited data

Results flagged for a closer look

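One signal lies outside the comparisons above. In the 629 cells to which no type was given, the 52 genes took 0.426% of UMIs (mean of 6 retinas, 0.281% to 0.516%), between photoreceptors (0.373%) and interneurons (0.652%). The 14 rod genes took 12.2% of UMIs in these cells. The pump gene Atp6v0c was at 731 CPM there, beside 175 CPM in photoreceptors.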

How the results depend on the processing

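The count of members called in mesenchymal cells, 0 as reported, was 2 with the batch as a covariate, 2 with the replicate block and 0 to 1 when 1 retina was left out (1 without ko/ko replicate 2). In the other types and in all cells it was 0 under every alternative. Same-numbered retinas deviated together for numbers 2 and 3 (correlations of 0.23 to 0.65) and less for number 1 (-0.074 to 0.10). Number 3 is the batch 1 retina in both genotypes, so batch and a pairing by number cannot be told apart in these correlations. The labels state no pairing, and the replicate block is an alternative only. In interneurons the correlations were 0.10, 0.34 and 0.58, and the block called 0 members. Under the block Ctss differed by -1.47 and Ctsz by -1.12 in mesenchymal cells. Members highest in 1 type in all 6 retinas, without mitochondrial genes, Malat1 and rod genes in the denominator, numbered 2 in photoreceptors and 1 in glia. They numbered 2 and 1 with TMM factors, and under both of these alternatives 2 in RPE cells, where Atp6ap1 was lost. Without microglia-like cells they numbered 1 in glia and 2 in mesenchymal cells, and Ctsd joined those highest in RPE cells. With 1 retina left out they were 3 to 5 in RPE cells (5 without ko/ko replicate 3), 9 to 12 in mesenchymal cells, 0 to 1 in glia, and 5 to 6 in interneurons. Without those genes in the denominator the summed level was 0.499% in photoreceptors, 0.742% in interneurons and 1.00% in glia, and it was 0.631% in mesenchymal cells without microglia-like cells. Members called between the mesenchymal classes were 17 to 18 with 1 retina left out and 19 without a filter. The microglia-like share differed by -25.0 to -15.6 points with 1 retina left out. Depth limits RPE cells most, where 45 of 52 members could not be tested. The cause of these changes was not tested.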
